A study of Aedes aegypti with 6 samples.

Results

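The vitellogenin genes VgA1 (AAEL010434), VgB (AAEL006138) and VgC (AAEL006126) of the yellow fever mosquito, Aedes aegypti, were followed in testes of male pupae as genes expected to be silent there. They were chosen by identifier and not by a cut on their intensities, though with earlier results of these data known. The deposited table held all 3 genes among 12813 measured genes, as 4 of 13471 transcripts: VgA1 and VgB had 1 transcript each (RA), and VgC had RA and RB. The names VgA1, VgB and VgC came with the list of identifiers. The table holds identifiers alone, and 0 of them were found in the RefSeq gene table used here (19623 genes, assembly AaegL5.0), so the names were not checked against an annotation and no genome position is given.

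Total RNA of testes from early pupal males was hybridised to 6 one-colour (Cy3) NimbleGen arrays, 3 from T37, a strain with meiotic drive, and 3 from RED, a strain without it. Under meiotic drive, one chromosome of a pair reaches more of the gametes than the other. Males of both strains were reared alike, and per the labels each replicate came from testes extracted separately, so p-values measure the spread between extracts. With 1 strain of each kind, the drive and any other difference between the strains cannot be told apart. One description field of each RED sample names T37 replicates, whereas title, source name and strain give RED. The deposited values are RMA intensities, 1 per transcript and array, and are given here as log2 levels. With RMA the arrays' distributions are drawn together, and median intensities ran from 1887 to 1967 on T37 arrays and from 1836 to 1985 on RED arrays. The dim ends were less alike: the 5th percentile of all genes lay at a log2 level of 6.47 on RED replicate 3 and 7.61 on RED replicate 1.

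Vitellogenins are the yolk protein precursors of insects. In the female Aedes aegypti the fat body makes them after a blood meal, under control of the steroid hormone 20-hydroxyecdysone and of amino acid signalling through TOR. They are secreted into the haemolymph, and the growing oocyte takes them up through the vitellogenin receptor and stores them as yolk. Males do not take blood and lay down no yolk. VgA1, VgB and VgC encode related proteins with this same role, so the 3 genes serve as copies of a single kind of baseline and not as independent silent genes.

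As gene means, the vitellogenins were not at the dark end of the arrays. On 4 of the 6 arrays they lay near the 25th percentile of all genes or somewhat below it. On the others, T37 replicate 3 and RED replicate 1, they lay higher, up to the middle of the array. The exception was VgC on RED replicate 1, at percentile 24.7. A percentile here is the share of the other genes with a lower log2 level on the same array. It ranks brightness, which depends on the probes of each gene as well as on RNA abundance. No detection calls, control features or female fat body sample were analysed here, so neither the level of an absent transcript nor that of an active vitellogenin gene is known on these arrays. In a bulk extract, fewer cells of a type and less RNA per cell cannot be told apart.

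VgA1 had intensities of 382, 468 and 1531 in T37 replicates 1, 2 and 3, against 778, 478 and 494 in RED replicates 1, 2 and 3. These placed it at percentiles 19.2, 22.2 and 46.4 in T37 and at percentiles 30.7, 21.1 and 22.9 in RED. The T37 values thus spread from below all RED values to above them.

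VgB had intensities of 471, 501 and 1897 in T37 replicates 1, 2 and 3, against 1027, 607 and 350 in RED replicates 1, 2 and 3. Its percentiles were 23.1, 23.5 and 50.9 in T37 and 36.96, 26.3 and 17.4 in RED. VgB held both the highest and the lowest percentile of the 3 genes: on T37 replicate 3 it was brighter than the median gene, and on RED replicate 3 it was the dimmest vitellogenin.

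VgC, as the mean of its transcripts on the log2 scale, stood at 8.87, 8.70 and 10.02 in T37 replicates 1, 2 and 3, against 9.24, 8.76 and 8.60 in RED replicates 1, 2 and 3. Its percentiles were 23.0, 20.4 and 37.9 in T37 and 24.7, 19.3 and 18.9 in RED. VgC varied least of the 3 genes, with 1.42 between its highest and lowest log2 level, against 2.004 for VgA1 and 2.44 for VgB.

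**Figure D1:**
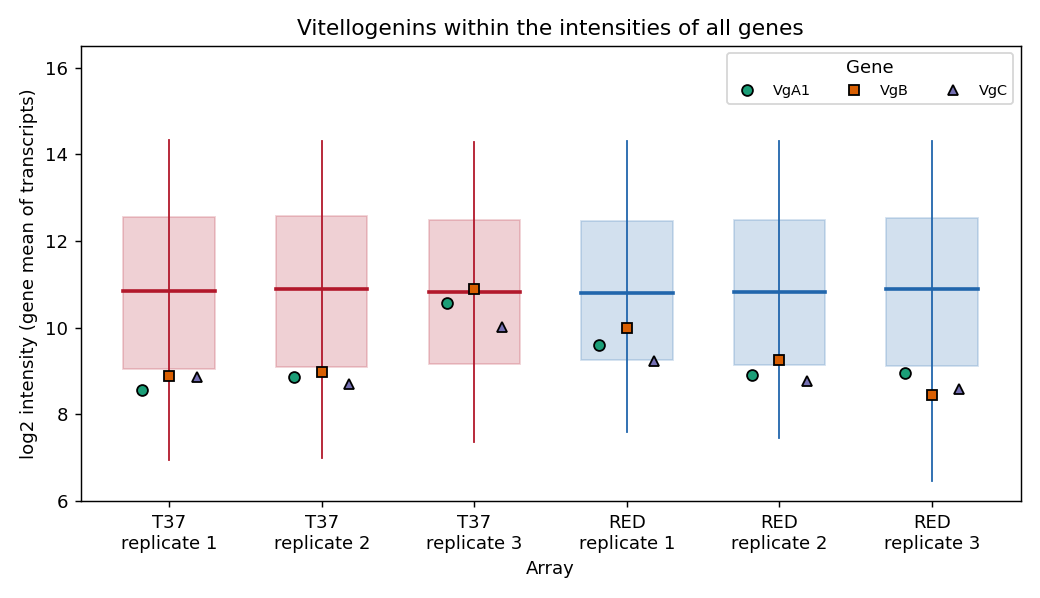
Log2 levels (vertical axis) of VgA1, VgB and VgC on each of the 6 arrays (horizontal axis, T37 in red and RED in blue), over the levels of all 12813 genes. Boxes span the 25th to 75th percentiles with the median as a thick line, and thin lines span the 5th to 95th percentiles; only VgB on T37 replicate 3, at percentile 50.9, reaches the median.

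In order of median percentile over the 6 arrays, VgB came first at 24.9, followed by VgA1 at 22.6 and VgC at 21.7. These gaps were small beside the spread of each gene over the arrays, which was 17.4 to 50.9 for VgB, 19.2 to 46.4 for VgA1 and 18.9 to 37.9 for VgC. Within arrays, VgB was above VgA1 on 5 of 6 arrays and above VgC on 5 of 6, and VgA1 was above VgC on 5 of 6. VgA1 was the brightest of the 3 on RED replicate 3 and the dimmest on T37 replicate 1. Since each gene has its own probes, this order of brightness is not an order of RNA abundance.

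As gene means, all 3 genes stood clear of the darkest values. Transcript RA of VgC taken singly came closer to them, with a log2 level of 7.82 on RED replicate 2, at percentile 7.91 among transcripts. The 5th percentile of all genes was at log2 levels of 6.94, 6.99 and 7.37 on T37 replicates 1, 2 and 3, against 7.61, 7.45 and 6.47 on RED replicates 1, 2 and 3. Over this 5th percentile the smallest margin of any vitellogenin as a gene mean was 1.32 on the log2 scale, for VgC on RED replicate 2. The largest was 3.52, for VgB on T37 replicate 3. Between 17.4% and 37.9% of all genes were dimmer than all 3 vitellogenins on the same array, and the array with 37.9% was T37 replicate 3, followed by RED replicate 1 with 24.7%.

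The transcripts of VgC differed in where they lay and in how they moved. Transcript RA had intensities of 327, 308 and 620 in T37 replicates 1, 2 and 3, against 273, 225 and 276 in RED replicates 1, 2 and 3, at percentiles 7.91 to 26.3 among transcripts. Transcript RB had 667, 558 and 1739 in T37 replicates 1, 2 and 3, against 1334, 838 and 545 in RED replicates 1, 2 and 3, at percentiles 24.2 to 48.4. The level of VgC as a gene is thus the mean of a dimmer and a brighter transcript.

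The log2 gap of RB over RA was 1.12 ± 0.33 on T37 arrays and 1.72 ± 0.67 on RED arrays (SD, n = 3 per strain), with values of 1.03, 0.85 and 1.49 in T37 replicates 1, 2 and 3 and of 2.29, 1.89 and 0.98 in RED replicates 1, 2 and 3. The strains' gaps overlapped, and the difference between them was not tested.

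RA was the one vitellogenin transcript whose strains did not overlap, with every T37 array above every RED array. Of all transcripts, 15.3% showed this order. Its log2 level was 8.63 ± 0.56 on T37 arrays and 8.01 ± 0.16 on RED arrays (SD, n = 3 per strain), and the difference of 0.63 (SE 0.31) did not pass limma with Benjamini-Hochberg adjustment over all transcripts (adjusted p = 0.29), a test that 4.38% of all transcripts passed. RB stood at 9.76 ± 0.88 on T37 arrays and 9.73 ± 0.65 on RED arrays (SD, n = 3 per strain), a difference of 0.030 (SE 0.53, limma adjusted p = 0.98).

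**Figure D2:**
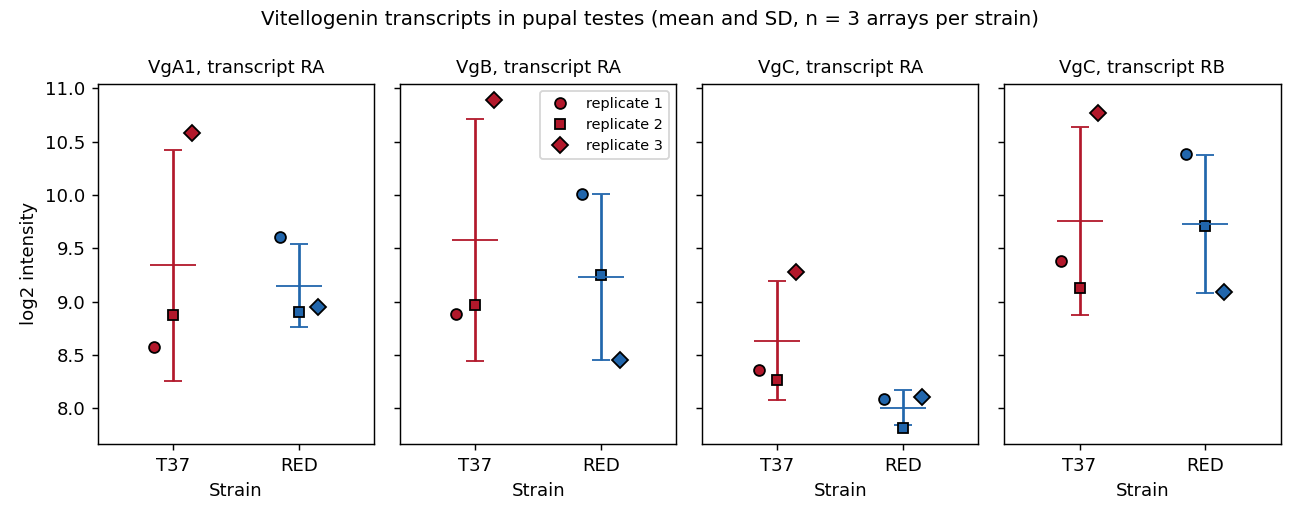
Log2 intensity (vertical axis) of the 4 vitellogenin transcripts in T37 and RED (horizontal axis), with a symbol for each replicate and the mean and SD of 3 arrays per strain. T37 replicate 3 is the highest point of every transcript, and only VgC RA, at 8.27 to 9.27 in T37 and 7.82 to 8.11 in RED, has strains that do not overlap.

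Whether a vitellogenin differed between drive and non-driving testes was asked with limma fitted across all 12813 genes, T37 minus RED. None of the 3 genes passed an adjusted p under 0.05, a threshold that 580 genes or 4.53% of all genes passed, with 2.44% higher and 2.09% lower in T37. None was below an unadjusted limma p of 0.05 either, against 2914 genes, or 22.7% of all genes. The strains' arrays overlapped for each of VgA1, VgB and VgC, while 28.7% of all genes had strains that did not overlap. With 3 arrays against 3, an exact permutation test of a single gene cannot go below p = 0.1, so none is given.

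VgA1 averaged a log2 level of 9.34 ± 1.08 on the T37 arrays and 9.15 ± 0.39 on the RED arrays (SD, n = 3 per strain). The difference was 0.19 (SE 0.55, 95% interval -1.16 to 1.54; limma adjusted p = 0.88). In folds the interval runs from 0.448 to 2.91, so neither a 2-fold rise nor a 2-fold fall lies outside it.

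VgB averaged 9.58 ± 1.14 on the T37 arrays and 9.23 ± 0.78 on the RED arrays (SD, n = 3 per strain). The difference was 0.35 (SE 0.66, 95% interval -1.25 to 1.94; limma adjusted p = 0.81). This interval was the widest of the 3, from 0.421-fold to 3.84-fold.

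VgC averaged 9.19 ± 0.72 on the T37 arrays and 8.87 ± 0.33 on the RED arrays (SD, n = 3 per strain). The difference was 0.33 (SE 0.40, 95% interval -0.63 to 1.29; limma adjusted p = 0.69). The bounds of the interval are 0.645-fold and 2.45-fold.

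The sizes of these differences were ordinary for the table: the median gene differed by 0.36 in either direction on the log2 scale, and 28.9%, 48.6% and 46.6% of genes differed by less than VgA1, VgB and VgC did. The sign of all 3 differences rested on T37 replicate 3. Without that array the differences were -0.43 for VgA1 (limma adjusted p = 0.42), -0.31 for VgB (limma adjusted p = 0.71) and -0.084 for VgC (limma adjusted p = 0.86). The sign of VgB also turned without RED replicate 3, at -0.045 (limma adjusted p = 0.97). Without the third replicates of both strains, the differences were -0.53, -0.70 and -0.22 for VgA1, VgB and VgC, with limma adjusted p of 0.20, 0.11 and 0.51.

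**Figure D3:**
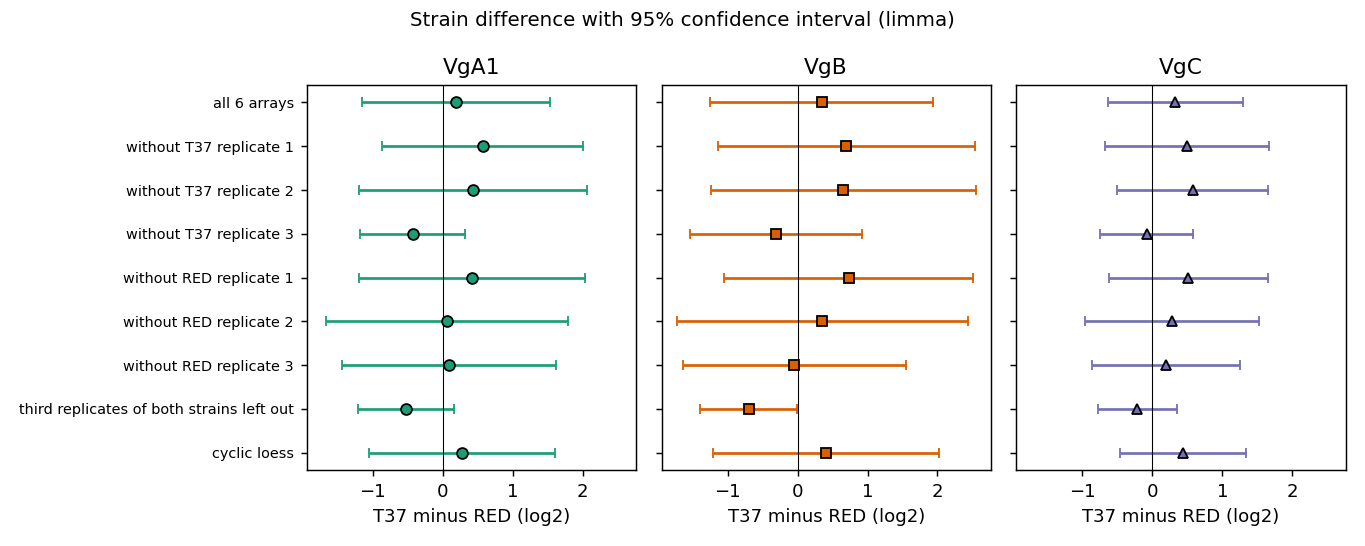
Differences T37 minus RED (horizontal axis, log2) of VgA1, VgB and VgC with 95% confidence intervals from limma, for all 6 arrays and for the settings named on the vertical axis. The estimates of all 3 genes lie below 0 without T37 replicate 3, and the interval of every row spans 0 except that of VgB without the third replicates of both strains, which ends at -0.012.

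Replicates of a strain differed more in these genes than the strains did. On T37 replicate 3, VgA1 was 1.86 above the mean of the other T37 arrays on the log2 scale, VgB was 1.96 above it and VgC 1.24. On RED replicate 1 the same genes were 0.68, 1.16 and 0.56 above the other RED arrays. On RED replicate 3, VgB lay at -1.17 relative to the other RED arrays, while VgA1 lay at -0.30 and VgC at -0.40.

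Genes of like level, taken as those within 0.5 of the member's mean log2 level, did not move as a body on these arrays. Of the 1857 genes near VgA1 the median on T37 replicate 3 was -0.036 relative to the other T37 arrays, and VgA1 exceeded 98.8% of them. VgB exceeded 98.8% of 1909 such genes and VgC 93.0% of 1759. On RED replicate 1 the vitellogenins stood apart less, above 78.3%, 88.1% and 72.1% of genes of like level for VgA1, VgB and VgC. These shares describe single arrays and carry no test.

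**Figure D4:**
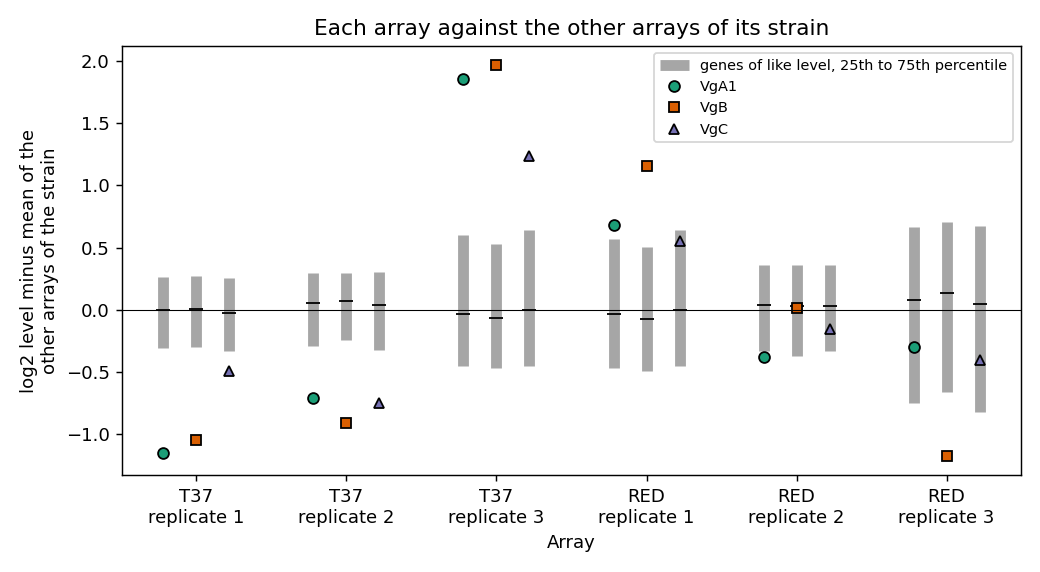
Log2 level of VgA1, VgB and VgC on each array minus the mean of the other arrays of the same strain (vertical axis), for the 6 arrays (horizontal axis), with grey bars from the 25th to the 75th percentile and a black tick at the median of genes within 0.5 log2 units of the gene's mean level. All 3 genes lie above the grey bar on T37 replicate 3, by 1.24 to 1.96 over the other T37 arrays, while the medians of genes of like level lie between -0.067 and -0.0022.

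The spread between replicates was accordingly wide in T37. The SD of VgA1 over the 3 T37 arrays, 1.08, exceeded that of 97.7% of genes of like level, whose median SD was 0.34. For VgB it exceeded 97.6% and for VgC 89.4%. In RED the SDs of VgA1 and VgC, at 0.39 and 0.33, were below the medians of genes of like level (0.47 and 0.48), and that of VgB, 0.78, exceeded 75.3% of them.

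T37 replicate 3 was also less like the other T37 arrays over all genes, with r = 0.948 and 0.958 to replicates 1 and 2, against 0.983 between those replicates. Deviations of T37 replicate 3 and RED replicate 1 from their strain means correlated at 0.46 over all genes, those of T37 replicate 1 and RED replicate 2 at 0.42, and those of T37 replicate 2 and RED replicate 3 at 0.37. The other 6 pairs of a T37 and a RED array gave values below 0. Deviations from a strain mean sum to 0 within the strain, so positive values in some pairs force negative ones in others. RED replicate 3 had r = 0.874 and 0.891 to the other RED arrays. The part of this structure in the vitellogenin levels was not tested. No slide, scan date or pupal age beyond the early pupal stage was used here. Markers of fat body or of germ cells could not be assigned to identifiers, so the labelled tissue was not checked beyond the vitellogenins themselves.

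Each of the 3 genes had its highest levels on T37 replicate 3 and RED replicate 1. Pearson correlations of log2 levels over the 6 arrays were 0.931 between VgA1 and VgB, 0.944 between VgA1 and VgC and 0.961 between VgB and VgC. Those values rest on the arrays where the genes were high. Over the 4 arrays left without T37 replicate 3 and RED replicate 1, r was -0.131, -0.867 and 0.585 for the same pairs. The arrays left out were picked as the farthest from the median of the first gene of each pair, which tends to lower r. With 4 arrays left, how the genes follow each other there is not settled. Among transcripts, VgC RB followed VgB at 0.970, whereas VgC RA followed VgB at 0.700 and its own partner RB at 0.577. The points share arrays and extracts. The probe sequences were not used here, so whether probes of these related genes also bind each other's transcripts was not tested, and the separate levels of the 3 genes are uncertain to that extent.

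Of the 12812 other genes, 21 had r of at least 0.9 with VgA1, 57 with VgB and 29 with VgC. Among these VgC and VgB ranked 8 and 11 for VgA1, VgC and VgA1 ranked 11 and 28 for VgB, and VgB and VgA1 ranked 4 and 12 for VgC.

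The gene most like VgA1 was AAEL000526 (r = 0.979 over 6 arrays), with log2 levels of 11.73, 11.72 and 12.54 in T37 replicates 1, 2 and 3, against 12.21, 11.88 and 11.81 in RED replicates 1, 2 and 3. The gene most like VgB was AAEL006344 (r = 0.996 over 6 arrays), at 6.56, 6.64 and 7.55 in T37, against 7.20, 6.83 and 6.38 in RED. The gene most like VgC was AAEL005298 (r = 0.9745 over 6 arrays), at 14.32, 14.20 and 14.74 in T37, against 14.54, 14.32 and 14.21 in RED. These genes lay at percentiles 62.6 to 75.8, 2.36 to 6.20 and 94.2 to 97.3. They were picked as the highest of 12812 correlations over 6 arrays, so their likeness follows from the choice.

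As a yardstick of brightness, the brightest vitellogenin of each array was set against all genes of that array. It stood at or above 23.1%, 23.5% and 50.9% of genes on T37 replicates 1, 2 and 3, against 36.96%, 26.3% and 22.9% on RED replicates 1, 2 and 3. At or below that level on all 6 arrays were 1975 genes, the vitellogenins included, or 15.4% of those measured, and 6009 genes, 46.9%, lay above it on all 6. The remaining 4829 were above it on some arrays and not on others. Measured by the dimmest vitellogenin of each array, 1393 genes, 10.9%, were at or below it on all 6 arrays.

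Of the 1975 genes no brighter than a vitellogenin on any array, 36 or 1.82% differed between the strains by limma at an adjusted p under 0.05, with 6 higher and 30 lower in T37, against 4.53% of all genes. They made up 6.21% of the 580 genes that differed. Among the 6009 genes above the yardstick on all arrays, 190 or 3.16% differed, with 134 higher and 56 lower in T37. The remaining 4829 gave 354 calls, 7.33%. The counts depended on the arrays used. With the same classes, the 36 calls among genes no brighter than a vitellogenin became 0, 0 and 22 on dropping T37 replicates 1, 2 and 3, and 3, 0 and 95 on dropping RED replicates 1, 2 and 3. Without the third replicates of both strains they became 975, or 49.4% against 32.9% of all genes, so the share was then above that of all genes and not below it. Lower calls outnumbered higher ones without T37 replicate 3 (17 against 5), without RED replicate 1 (3 against 0) and without RED replicate 3 (78 against 17). Without the third replicates of both strains, 887 were lower and 88 higher in T37. After cyclic loess there were 48 calls, 25 higher and 23 lower in T37, so the excess of lower calls was not kept there. These shares are descriptions, since the classes were made from the same values as the test. The part of the unlike dim ends of the arrays in these calls was not tested.

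Above the brightest vitellogenin on all T37 arrays and at or below it on all RED arrays were 7 genes, of which 5 were called. The opposite held for 73 genes, of which 34 were called. Both classes were picked by a separation of the strains, so shares of calls above the 4.53% of all genes follow from that choice. The yardstick itself was uneven between the strains, since its lowest value in T37 was 8.88 and its highest 10.89, against 8.95 and 10.004 in RED, and the highest T37 value came from T37 replicate 3.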

How the data were processed

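RNA of 6 testis extracts was measured on NimbleGen one-colour arrays, and the deposited values are intensities on a linear scale that the authors processed with RMA, per the submitters' processing notes. Its version, the array design and the annotation release were not given in the sources used here. Samples were grouped by strain from their titles. Intensities were converted to log2 without a pseudocount, transcripts of a gene were averaged, and T37 was compared with RED in limma 3.58.1 (R 4.3.3; lmFit and eBayes, two-sided, no covariate, no filter), with Benjamini-Hochberg adjustment over 12813 genes. On arrays the number of replicates, 3 per strain, limits the precision. Data were also simulated from the mean levels of all genes, with the SDs shuffled over genes and independent noise. There the test recovered 24 of 100 genes changed by 1 and 59 of 100 changed by 2 on the log2 scale, with 4 false calls. The simulation holds no structure shared between arrays and no SDs tied to genes. Its rates therefore do not describe the vitellogenins or the calls on the real arrays. The members, lists and tests were chosen with earlier results of these data known. The genes named beside the members are, for each, the one with the highest Pearson correlation over the 6 arrays. Planned lists of other yolk genes and of cell type markers were not used, since 0 identifiers matched the RefSeq table. Alternatives were each array left out, the third replicates of both strains left out, a replicate block, quantile normalisation, cyclic loess, a filter on the dimmest 5% of genes, dim values raised, an intensity trend, and transcripts taken singly.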

Additional observations from a re-analysis of the deposited data

How the results depend on the processing

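The vitellogenins stayed short of the threshold in all alternatives run, with limma adjusted p between 0.11 and 0.98, so none gives a direction. Leaving out 1 array gave differences of -0.43 to 0.57 for VgA1, -0.31 to 0.73 for VgB (below 0 without T37 replicate 3 and, at -0.045, without RED replicate 3) and -0.084 to 0.58 for VgC. Without the third replicates of both strains they were -0.53, -0.70 and -0.22. The cause of these turns beyond the arrays left out was not tested. Adding the replicate number as a block, the differences were 0.19, 0.35 and 0.33 by construction (limma adjusted p = 0.90, 0.85 and 0.74). The replicate numbers gave no sign that same-numbered arrays were paired. The positive correlations between differently numbered arrays, given above, were not used in a fit. Deviations of same-numbered arrays correlated at -0.25, -0.16 and -0.17 for replicates 1, 2 and 3, and none of them was nearest to its same-numbered array. Since deviations sum to 0 within a strain, these values are not independent of those of the other pairs. The 580 called genes became 0 under the block, with 2467 at an unadjusted p under 0.05. The smallest limma adjusted p there was 0.051, just over the threshold. Without the third replicates the calls numbered 4221, and with 1 array left out 10 to 957. These were 15, 10 and 313 on dropping T37 replicates 1, 2 and 3, and 83, 37 and 957 on dropping RED replicates 1, 2 and 3. Under the other 6 alternatives the calls numbered 583 to 723. Median percentiles were rerun with 1 array left out, after cyclic loess and with transcripts ranked singly. They moved by less than the replicate SD of 11.1, 13.2 and 7.07 percentile points for VgA1, VgB and VgC, except for single VgC transcripts. There RA was at 14.5 and RB at 30.9, against 21.7 for the gene. A median over 6 arrays can move little when 1 is left out, so this stability says little. The 1975 genes at or below the brightest vitellogenin ranged from 1871 after cyclic loess to 2425 with transcripts ranked singly. Of these 1975, the 36 called by limma became 975 without the third replicates, 0 under the block and 0 to 95 with 1 array left out, alternatives chosen after seeing the data. Signal over background was not known.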
